A study of Mus musculus with 18 samples.

Results

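Messenger RNA of enzymes of glycolysis and of lactate and pyruvate metabolism was followed in the mouse cochlear nucleus, the brainstem nucleus that receives the auditory nerve, in the first 3 postnatal weeks, on days 7 (P7), 14 (P14) and 21 (P21). The enzymes were represented by 18 probe sets of an oligonucleotide array, chosen by identifier for 10 genes, of 22690 probe sets in all. A probe set is a group of short probes for 1 transcript, read as 1 value. Hk1 and Pfkp had 2 probe sets each, Aldoa 3, Tpi1 2, Ldhb 4, and Pgk1, Pgam1, Pkm, Ldha and Pc 1 each. The tissue came from C57Bl6/J mice with no treatment named in the labels, and each array was hybridised with RNA pooled from the cochlear nuclei of 5 pups. The youngest and the oldest age had 3 arrays each and P14 had 2. The label of a P21 array speaks of 2 replicates where those of the other P21 arrays speak of 3, and all 3 were used. The labels do not say that every pool came from other animals, so p-values measure the spread between these samples, which may be technical in part.

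Glycolysis splits glucose into pyruvate in the cytosol. Pyruvate then either enters the mitochondrion, where it is oxidised or carboxylated, or is converted to lactate by lactate dehydrogenase. Lactate dehydrogenase is assembled from A and B subunits, the products of Ldha and Ldhb. Forms rich in A are typical of tissues that release lactate and forms rich in B of tissues that take it up and oxidise it.

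The lactate dehydrogenase transcripts Ldha and Ldhb changed in opposite directions in these weeks. Ldha fell 3.06-fold from P7 to P21, while the 4 probe sets of Ldhb rose 1.79-fold to 2.01-fold. Pkm, which encodes the pyruvate kinase of most tissues outside the liver, rose 2.02-fold. The probe sets of Pfkp, which encodes a phosphofructokinase, rose 1.57-fold and 2.26-fold, and those of Aldoa, Tpi1, Pgk1, Pgam1 and Pc rose 1.21-fold to 1.63-fold. Neither probe set of Hk1, the main hexokinase of brain, passed the test. Of the 18 probe sets, 16 differed between P7 and P21 in limma at an adjusted p under 0.05, 15 of them higher and 1 lower at P21. Over all 15296 probe sets tested the share called was 38.6%, with 17.1% higher and 21.5% lower. All P21 arrays lay above or all below all P7 arrays in 16 members, where this was so for 49.5% of all probe sets. All 18 lay among the 5099 brightest of the probe sets tested, by mean signal, where 52.5% were called and 26.9% were called higher. The median log2 change of the 18 was 0.60, against -0.02 over all probe sets tested. A log2 change here is the difference of mean log2(signal + 12.5) between ages, and folds are on that scale. Signal is the deposited intensity value, scaled to the same trimmed mean on each array. In RNA from whole tissue, fewer cells of a type and less RNA per cell cannot be told apart. No table at hand pairs other probe sets with genes, so markers of cell types and the rest of the pathway were not analysed here, and neither the tissue label nor a shift in cell types was tested.

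**Figure D1:**
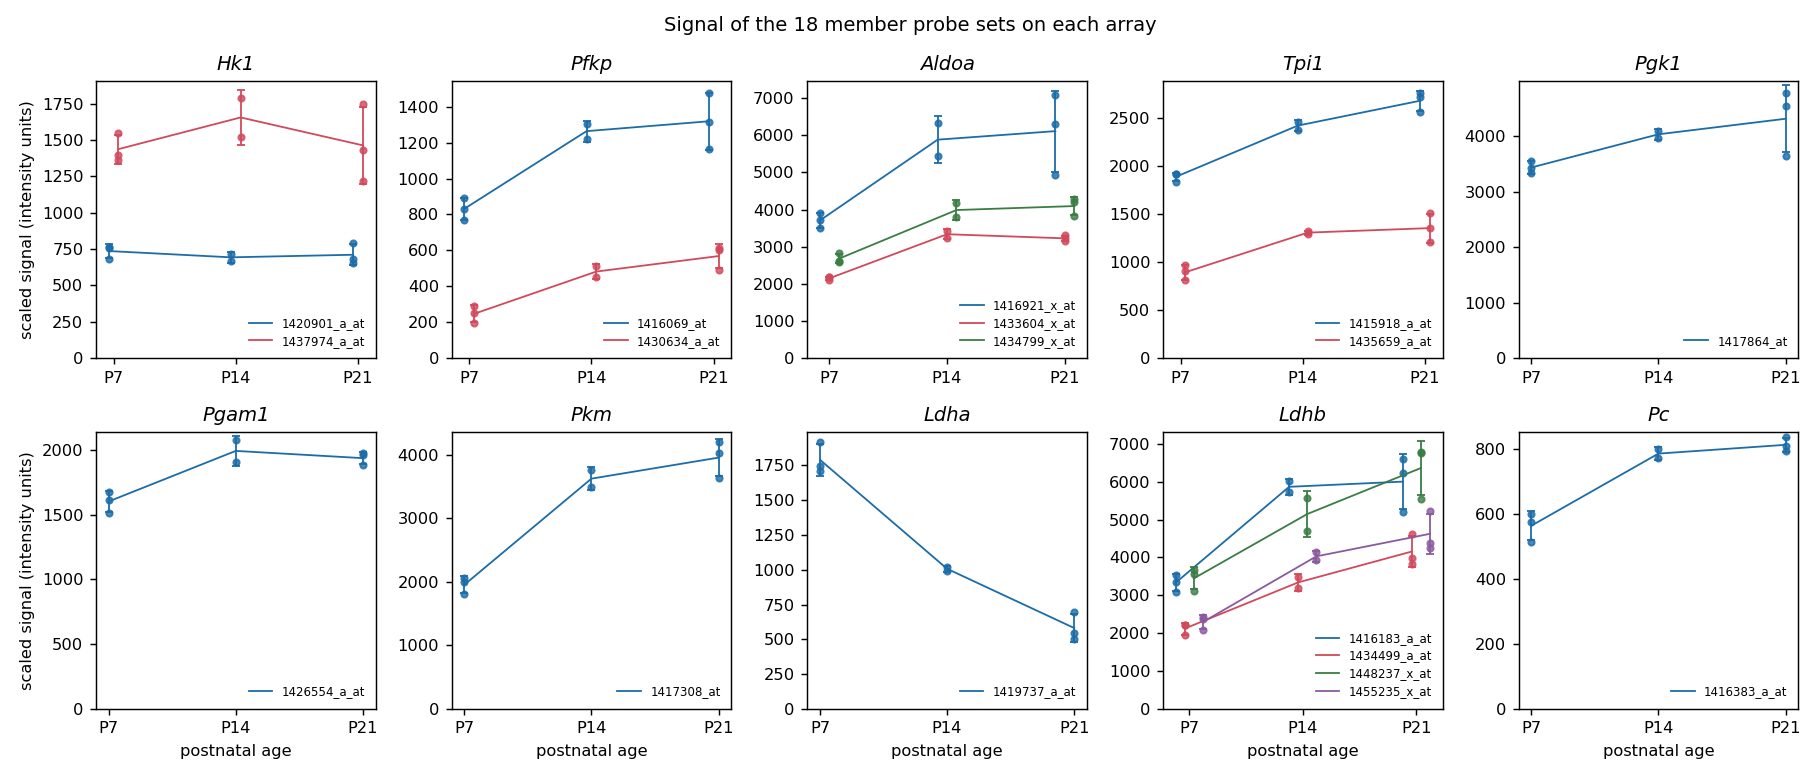
Scaled signal of each member probe set, in intensity units, against postnatal age, with 1 panel per gene. Points are arrays, lines join the means of each age and bars are 1 SD (n = 3, 2 and 3). Ldha is the only panel that falls at each age, from a mean of 1791 to 581, while both lines of Hk1 stay within overlapping points and the others are higher at P14 and P21 than at P7.

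The arrays were scaled to the same mean signal, 250.1 after trimming, and their median signals were 98.7 to 110.5. The ratio of the 3' to the 5' control probe set, which rises when RNA is degraded, was 0.820 to 0.904 at P7, 0.782 to 0.791 at P14 and 0.818 to 0.836 at P21 for Gapdh, and 1.01 to 1.17, 1.02 to 1.05 and 1.05 to 1.13 for beta-actin. The brightest signal on an array was 7506 on P7 replicate 1 and 7562 on P21 replicate 1, against 9027 to 12577 on the others. The arrays also differed in which bacterial poly-A control gave a bright signal. It was lys on P7 replicate 3, on P14 replicate 2 and on P21 replicate 1, dap on the other P7 and P14 arrays, and phe or trpn on the remaining P21 arrays. With this control as a block, P21 rests on replicate 1 alone, and 9 members were called between P7 and P21, where the share of all probe sets called was 12.7%. The calls lost were those of both Pfkp probe sets, 1416921_x_at and 1434799_x_at (Aldoa), Pgk1, Pgam1 and Pc, with log2 changes of 0.07 to 0.88 and limma adjusted p of 0.0609 to 0.758. On the arrays with lys alone, from the youngest to the oldest, Ldha gave 1707, 991 and 548 and Pkm gave 2055, 3492 and 3636. P21 replicate 1 gave the lowest of the P21 signals for 12 of the 18 members, and the share over all probe sets was not taken. The part of this in the results was not tested. Without that array the count called between P7 and P21 was 16, where 37.1% of all probe sets were called.

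Hexokinase phosphorylates glucose and so traps it in the cell. The first Hk1 probe set, 1420901_a_at, gave signals of 683, 761 and 766 at P7, 719 and 668 at P14 and 655, 793 and 684 at P21. The second, 1437974_a_at, gave 1551, 1365 and 1397 at P7, 1789 and 1521 at P14 and 1430, 1745 and 1215 at P21. The ages overlapped in both. The log2 change from P7 to P21 was -0.05 (95% interval -0.28 to 0.17, limma adjusted p = 0.715) and 0.01 (-0.28 to 0.30, limma adjusted p = 0.952). Rises as large as those of Pkm or Ldhb lay outside these intervals, while a small change of either sign lay within them.

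Phosphofructokinase catalyses the committed step of glycolysis, and Pfkp encodes its platelet-type subunit, which is also expressed in brain. Probe set 1416069_at gave 770, 832 and 893 at P7, 1305 and 1222 at P14 and 1165, 1313 and 1479 at P21, and rose by 0.65 on the log2 scale between P7 and P21 (SE 0.11, limma adjusted p = 0.000843). Probe set 1430634_a_at, the dimmest member, gave 197, 252 and 292, then 513 and 452, then 491, 601 and 613. It rose by 1.17 (SE 0.15, limma adjusted p = 0.000177), and 426 of the 15296 probe sets tested rose by more. Every P14 and P21 array lay above every P7 array in both probe sets. The 95% intervals of the changes, 0.42 to 0.89 and 0.84 to 1.5, overlapped, and the difference between the probe sets was not tested.

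Aldolase A cleaves fructose bisphosphate into the triose phosphates. Its probe sets carry the suffix _x_at, by which the array's maker marks sets with probes that also match other transcripts, so part of their signal could come from other transcripts. The brightest, 1416921_x_at, gave 3501, 3708 and 3913 at P7, 6323 and 5440 at P14 and 4934, 7095 and 6302 at P21. The others were tighter, with means of 2149 ± 46.4 (SD, n = 3), 3336 ± 130 (SD, n = 2) and 3225 ± 74.7 (SD, n = 3) for 1433604_x_at and of 2676 ± 126, 3987 ± 281 and 4094 ± 246 for 1434799_x_at. All 3 rose from P7 to P21, by 0.70, 0.58 and 0.61 on the log2 scale (limma adjusted p = 0.00173, 0.000199 and 0.000343). In each, the arrays of P14 and P21 overlapped and both ages lay wholly above P7.

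Triosephosphate isomerase interconverts the triose phosphates. The Tpi1 probe set 1415918_a_at gave 1908, 1831 and 1909 at P7, 2457 and 2374 at P14 and 2756, 2712 and 2554 at P21. Each later age lay wholly above the one before, although the change from P14 to P21 did not pass. The second, 1435659_a_at, gave 964, 809 and 905, then 1319 and 1289, then 1504, 1202 and 1347. From P7 to P21 the log2 changes were 0.50 and 0.59 (SE 0.08 and 0.11, limma adjusted p = 0.000587 and 0.00152).

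Phosphoglycerate kinase, which forms the first ATP of the pathway, and phosphoglycerate mutase, the next enzyme, had the smallest changes that passed. Pgk1 gave 3330, 3425 and 3551 at P7, 4103 and 3966 at P14 and 3635, 4538 and 4772 at P21, and rose by 0.32 on the log2 scale between P7 and P21 (SE 0.11, limma adjusted p = 0.0357). Pgam1 gave 1515, 1618 and 1677, then 2078 and 1910, then 1882, 1959 and 1974, and rose by 0.27 (SE 0.08, limma adjusted p = 0.0238). In both genes the P21 arrays lay above the P7 arrays, by a narrow margin for Pgk1 on P21 replicate 1. Single arrays and settings ended these calls. Pgk1 had an adjusted p of 0.0546 to 0.114 without any 1 of P7 replicates 1, 2 and 3, P14 replicates 1 and 2 and P21 replicates 2 and 3, with log2 changes of 0.24 to 0.34. Its adjusted p was 0.0657 with no filter and 0.0731 with no variance trend, and without P21 replicate 1 the rise was 0.44 (limma adjusted p = 0.00192). Pgam1 had 0.0551 to 0.0698 without P7 replicate 1 or 2 or P21 replicate 2 or 3, with log2 changes of 0.23 to 0.28, and 0.0598 with no variance trend.

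Pyruvate kinase makes pyruvate and ATP in the last step of glycolysis. The Pkm probe set 1417308_at gave 2000, 1799 and 2055 at P7, 3751 and 3492 at P14 and 3636, 4194 and 4029 at P21, that is 1951 ± 135 (SD, n = 3), 3622 ± 183 (SD, n = 2) and 3953 ± 286 (SD, n = 3). Every later array lay above every P7 array by a wide gap. The log2 change was 1.01 from P7 to P21 (SE 0.09, limma adjusted p = 2.1e-05) and 0.89 from P7 to P14 (SE 0.10, limma adjusted p = 0.000219). From P14 to P21 it was 0.12 (95% interval -0.10 to 0.35). The gene gives rise to M1 and M2 splice forms, and with 1 probe set and no probe sequences at hand they were not told apart.

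Ldha was the one member that fell, and the member with the largest change. Probe set 1419737_a_at gave 1921, 1745 and 1707 at P7, 1023 and 991 at P14 and 548, 501 and 693 at P21. The ages did not overlap, and each later age lay wholly below the one before. Mean signals were 1791 ± 114 (SD, n = 3), 1007 ± 22.8 (SD, n = 2) and 581 ± 100.1 (SD, n = 3). The log2 change from P7 to P21 was -1.62 (SE 0.12, limma adjusted p = 7.26e-06), and 205 of the 15296 probe sets tested had a more negative one. It was -0.82 from P7 to P14 (SE 0.13, limma adjusted p = 0.0015) and -0.79 from P14 to P21 (SE 0.13, limma adjusted p = 0.0244).

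Ldhb moved the other way. Probe set 1416183_a_at gave 3359, 3087 and 3541 at P7, 6011 and 5716 at P14 and 5188, 6594 and 6222 at P21. Probe set 1434499_a_at gave 2210, 1938 and 2208, then 3494 and 3184, then 3994, 4630 and 3837. The x_at sets gave 3555, 3114 and 3664, then 5581 and 4708, then 5545, 6779 and 6754 (1448237_x_at), and 2422, 2092 and 2360, then 4129 and 3924, then 4391, 5228 and 4246 (1455235_x_at). In all 4 the P14 and P21 arrays lay above the P7 arrays. From P7 to P21 the log2 changes were 0.84, 0.97, 0.88 and 1.0 (SE 0.10 to 0.11, limma adjusted p = 4.34e-05 to 0.000184). The probe sets differed on how much of the rise came after P14, with log2 changes from P14 to P21 of 0.03, 0.31, 0.30 and 0.19, none of which passed.

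The difference between log2 Ldha and the mean log2 of the Ldhb probe sets was taken within each array, where no scaling of a whole array can move it. Its level has no meaning between unlike probes, and only its change with age was read. It was -0.55, -0.52 and -0.74 at P7, -2.18 and -2.10 at P14 and -3.08, -3.48 and -2.86 at P21. The ages did not overlap. It moved by -1.54 from P7 to P14, by -1.0 from P14 to P21 and by -2.54 from P7 to P21, a 5.81-fold shift away from Ldha. A two-sided exact permutation test of P21 against P7 gave p = 0.1, the smallest that 3 arrays against 3 can give. With each Ldhb probe set alone, with other pseudocounts, with quantile normalization and without each array the shift was -2.68 to -2.37.

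**Figure D2:**
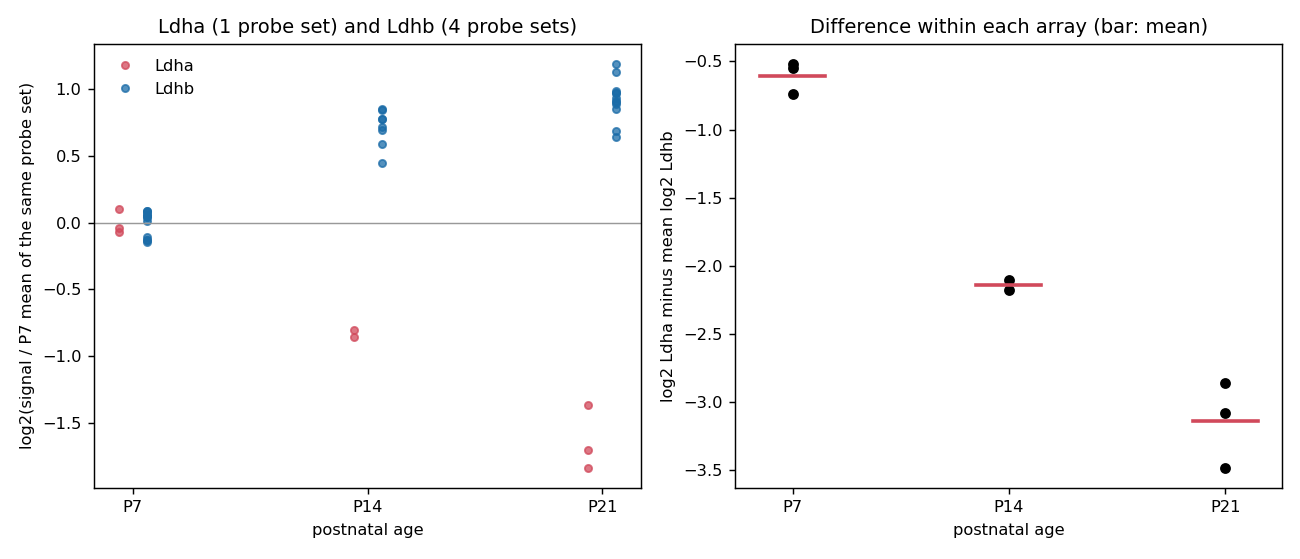
Left, log2 of each array's signal over the P7 mean of the same probe set, for Ldha (red, 1 probe set) and Ldhb (blue, 4 probe sets), against age. Right, log2 Ldha minus mean log2 Ldhb within each array, with the mean of each age as a bar, which moves from -0.60 to -2.14 to -3.14.

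Because Ldha and Ldhb parted and Pkm rose, the 250 bases upstream of the start of these genes are shown from RefSeq (GRCm38.p6), at the most upstream start that the table lists. Ldha is a textbook target of hypoxia-inducible factor, whose response element has the core ACGTG or GCGTG. Capitals mark every match to these cores on either strand, and CACGTG holds the core ACGTG on both strands.
Ldha, chr7:46845554-46845803, plus strand: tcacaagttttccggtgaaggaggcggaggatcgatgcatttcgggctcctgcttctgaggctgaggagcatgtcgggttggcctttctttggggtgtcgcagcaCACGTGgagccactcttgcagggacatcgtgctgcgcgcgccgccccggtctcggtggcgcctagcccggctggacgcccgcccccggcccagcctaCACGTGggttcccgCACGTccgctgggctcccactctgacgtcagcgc
Ldhb, chr6:142507958-142508207, minus strand: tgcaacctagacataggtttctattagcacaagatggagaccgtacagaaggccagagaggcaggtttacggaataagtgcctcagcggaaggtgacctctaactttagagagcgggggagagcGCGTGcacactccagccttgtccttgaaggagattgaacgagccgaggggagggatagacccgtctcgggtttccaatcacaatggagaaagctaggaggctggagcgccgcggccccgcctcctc
Pkm, chr9:59656326-59656575, plus strand: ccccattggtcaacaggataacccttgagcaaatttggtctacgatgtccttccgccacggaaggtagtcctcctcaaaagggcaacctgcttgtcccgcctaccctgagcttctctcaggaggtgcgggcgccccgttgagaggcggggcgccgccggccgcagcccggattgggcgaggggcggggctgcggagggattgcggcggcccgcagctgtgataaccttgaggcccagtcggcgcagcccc
The Ldha window held 5 matches in 3 separate stretches, the Ldhb window 1 and the Pkm window 0. Windows at other listed starts differed, with 1 match at the second start of Ldha and 1 at that of Pkm. Members that rose held as many stretches as Ldha, since the windows of Pfkp and Pgam1 each held 3 matches in 3 stretches, and no difference between genes was tested. All 10 genes were found in the RefSeq table, Pc under the symbol Pcx, with 16 start sites in all. Of these 16 windows 11 held a match, and 38.6% of the 32851 windows of the same length in the table did. Windows of 1 gene can overlap, as some of Aldoa do, and base content was not matched. The difference from the share was not tested. A match is a run of letters, not a bound site, and no binding was measured here.

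Pyruvate carboxylase turns pyruvate into oxaloacetate and so refills the citric acid cycle. In brain it is known mainly from astrocytes. The Pc probe set 1416383_a_at gave 601, 515 and 576 at P7, 800 and 773 at P14 and 794, 838 and 808 at P21. The later arrays all lay above the P7 arrays, and the log2 change from P7 to P21 was 0.52 (SE 0.09, limma adjusted p = 0.00129). The array also carries 4 control probe sets named for mouse pyruvate carboxylase, which the choice of members did not use. The one at the 3' end gave 230, 245 and 232 at P7, 309 and 321 at P14 and 351, 342 and 364 at P21, and when added to the fit it rose by 0.55 (SE 0.10, limma adjusted p = 0.0012) on the log2 scale between P7 and P21. The one labelled MA was dim, at 46.7, 88.2 and 89.7 at P7, 138 and 105.6 at P14 and 98.6, 141.7 and 133.4 at P21. It also passed, at 0.68 (limma adjusted p = 0.0411). Those labelled 5 and MB did not, at 0.41 and 0.36 (limma adjusted p = 0.118 and 0.128), and their P7 and P21 arrays overlapped.

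Control probe sets named for Gapdh, the glycolytic enzyme between triosephosphate isomerase and phosphoglycerate kinase, added a further gene of the pathway. The 3' set gave 4799, 5350 and 5475 at P7, 6594 and 5974 at P14 and 5023, 6978 and 7247 at P21. P21 replicate 1 fell among the P7 arrays, and the others lay above them. The log2 changes from P7 to P21 were 0.28, 0.36 and 0.34 for the 3', middle and 5' sets, of which the middle one passed (limma adjusted p = 0.0412) and the others did not (0.123 and 0.0878).

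**Figure D3:**
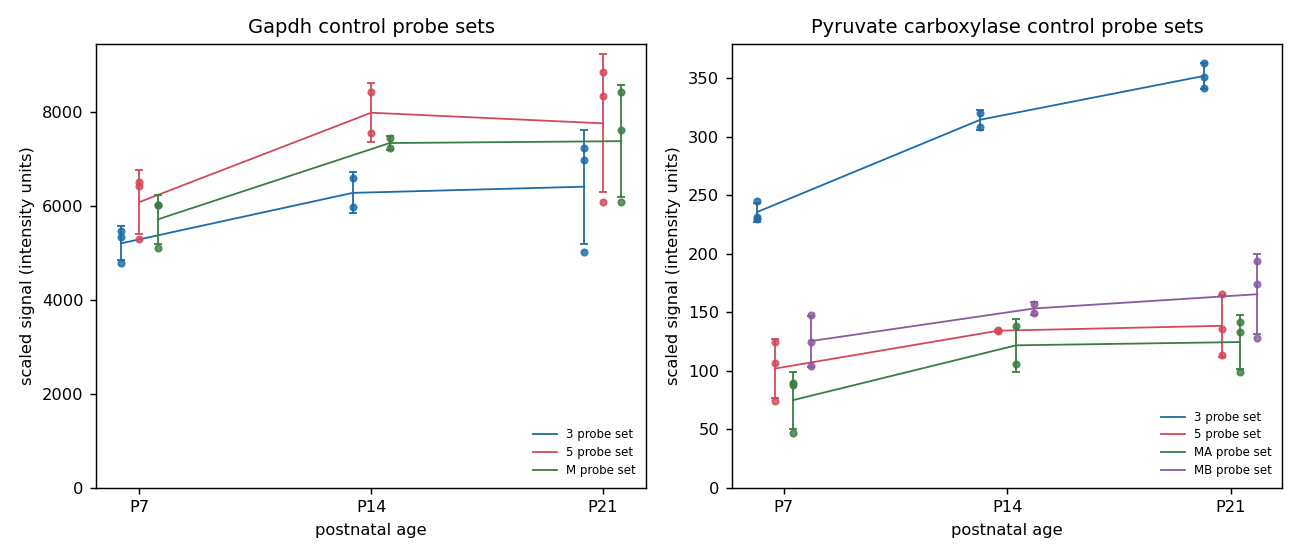
Scaled signal, in intensity units, of the control probe sets named for Gapdh (left) and pyruvate carboxylase (right) against age. Points are arrays, lines join means and bars are 1 SD (n = 3, 2 and 3). The 3' pyruvate carboxylase set rises from 236 to 315 to 352 with no overlap, while the lowest Gapdh points at P21 are those of replicate 1.

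The change from P7 to P14 was tested on its own. Of the 18 members, 15 differed between P7 and P14 in limma, 14 higher and 1 lower, where 29.6% of all probe sets were called, and 12.9% were called higher. Among the brightest 5099 by mean signal the shares were 42.1% and 24.4%. Pkm rose most over those 7 days after the dimmer Pfkp probe set, which rose by 0.95 (SE 0.17, limma adjusted p = 0.00226), the brighter one having risen by 0.60 (SE 0.12, limma adjusted p = 0.00432). The Ldhb probe sets, in the order given above, rose by 0.82, 0.65, 0.58 and 0.81, and those of Aldoa by 0.66, 0.63 and 0.57. Smaller rises were those of Tpi1 (0.36 and 0.54), Pc (0.47) and Pgam1 (0.31), with limma adjusted p of 0.00646 to 0.0275. Pgk1 joined the probe sets of Hk1 among those not called, with a log2 change of 0.23 (95% interval -0.03 to 0.49, limma adjusted p = 0.17). All P14 arrays lay above or all below all P7 arrays in 16 members, where this was so for 58.9% of all probe sets. Every member, Ldha included, was higher on P14 replicate 1 than on P14 replicate 2. How often this was so over all probe sets was not taken, and its part in the results was not tested. Without P14 replicate 1 the count was 9 and the share of all probe sets called was 15.9% (15.5% without P14 replicate 2), and the lone P14 array was then given the spread of the P7 and P21 arrays. The calls lost were those of 1416921_x_at (Aldoa), both Tpi1 probe sets, Pgam1, 1448237_x_at (Ldhb) and Pc, with log2 changes of 0.25 to 0.55 and adjusted p of 0.0548 to 0.202. After quantile normalization Pgam1 (0.20, limma adjusted p = 0.0905) and 1415918_a_at (0.23, limma adjusted p = 0.0851) were not called. The call of 1415918_a_at was also lost without P14 replicate 2 (0.0594). That of Pgam1 was also lost without P7 replicate 1 or 2 or P14 replicate 2, with no variance trend and with the poly-A block, at limma adjusted p of 0.0674 to 0.0712. Without P21 replicate 1, which adds to the common estimate of spread, Pgk1 was called (0.23, limma adjusted p = 0.0451).

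Between P14 and P21 only Ldha passed among the members, where 2.05% of all probe sets, and 3.73% of the brightest 5099, were called, and 1.2% were called lower. The share of all probe sets rested on single arrays. It was 0.254% without P14 replicate 1, 0 without P14 replicate 2, 0.546% without P21 replicate 2, 0.713% without P21 replicate 3, 0.903% and 1.19% without P7 replicates 2 and 3, and 3.06% without P7 replicate 1. The other 17 had log2 changes between -0.19 and 0.31, and their median over all 18 was 0.05, against 0.03 over all probe sets. The arrays of P14 and P21 did not overlap in 4 members, 1415918_a_at, Ldha, 1434499_a_at and 1455235_x_at, where this was so for 38.1% of all probe sets. The Ldha call was lost without P14 replicate 1 (-0.77, limma adjusted p = 0.126), without P14 replicate 2 (-0.82, 0.158) and without P21 replicate 2 (-0.70, 0.0653).

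**Figure D4:**
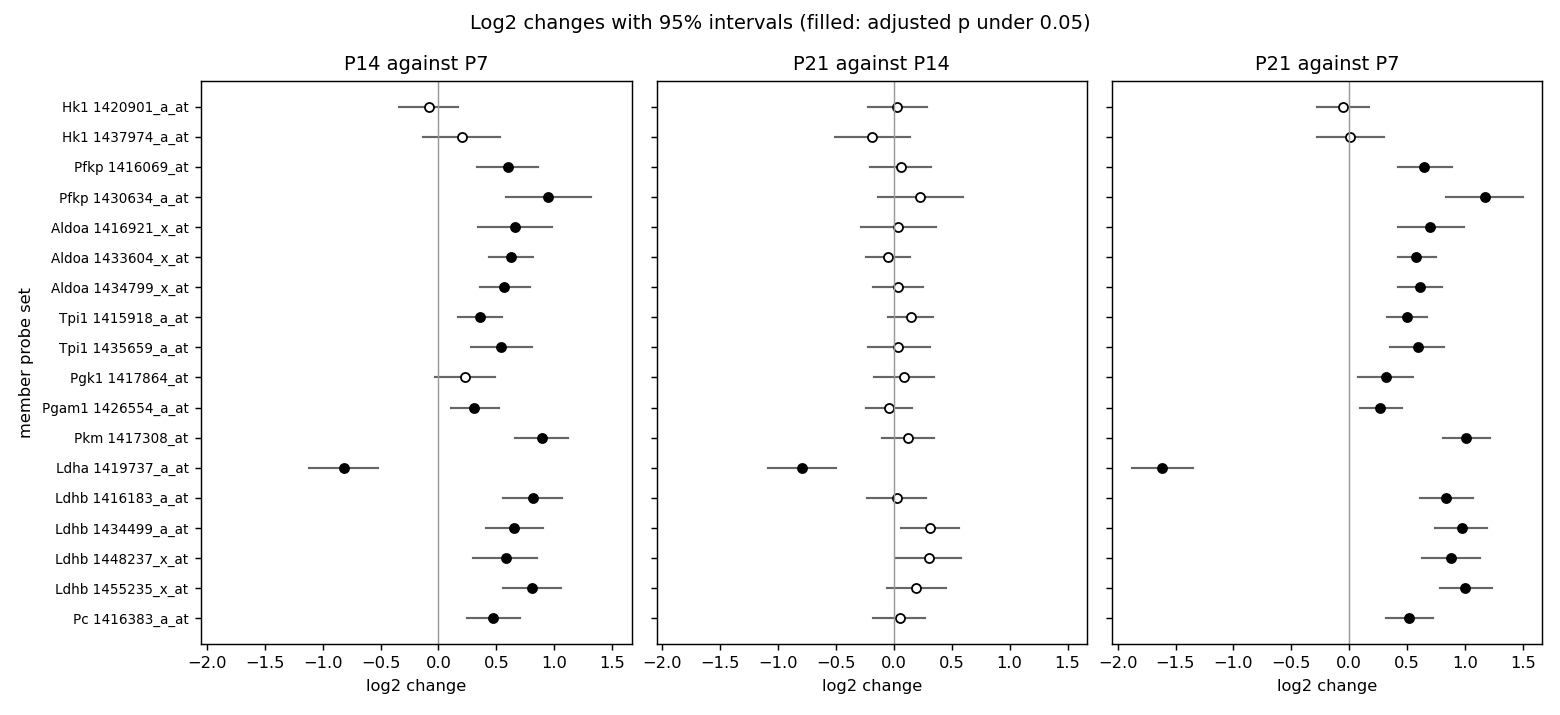
Log2 change of each member probe set between ages, with its 95% interval from limma. Filled points passed an adjusted p of 0.05. Ldha lies left of 0 in every panel, 15 probe sets lie right of 0 and filled for P21 against P7, and all but Ldha are open for P21 against P14.

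Changes before and after P14 were set against each other by their own contrast. For Ldha the difference was -0.03 (95% interval -0.56 to 0.50, limma adjusted p = 0.958), and by P14 it had made 0.508 of its log2 change to P21 (0.470 to 0.541 without each array in turn). In the main fit the 16 members called between P7 and P21 had made a median of 0.893, from 0.508 for Ldha to 1.15 for Pgam1. Pkm had made 0.877 (0.827 to 0.928). The median share over all probe sets was not taken. After quantile normalization Ldha was not the lowest. Pgk1 then rose by 0.04 on the log2 scale by P14 and by 0.22 by P21. Ldha then changed by -0.91 before P14 and by -0.77 after it. The contrast passed for 3 members, 1433604_x_at (Aldoa), Pkm and 1416183_a_at (Ldhb), with more change before P14, where 8.01% of all probe sets passed in either direction and 3.93% in this one. Among the brightest 5099 these shares were 13.1% and 8.47%. Without P14 replicate 1 or 2 the share of all probe sets was 0.606% or 0.345%, and it was 5.29% and 5.33% without P21 replicate 3 or P7 replicate 2. With either P14 array left out no member passed. That the share of Ldha differs from those of the other members was not tested.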

How the data were processed

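The oligonucleotide array values are deposited as 1 intensity per probe set and array, and the submitters' processing notes name GCOS with no version. How the authors computed and scaled the values is otherwise not given in the sources used here. Gene names of the members came with the choice of members, which, like the gene lists, was made with earlier results of these data known. No table pairs other probe sets or the spots of the cDNA arrays with genes, so the planned pathway and marker lists and the cDNA spots were not analysed here. Every member is named. Each array was multiplied to give the same 2%-trimmed mean, 250.1, which the deposited values already had on every array to that precision. Testing covered the 15296 of 22690 probe sets, all 18 members among them, that averaged at least 50 and were not among the 64 controls. A linear model of log2(signal + 12.5), where 12.5 is 0.05 of the trimmed mean, was fitted to all 8 arrays with limma 3.58.1 under R 4.3.3 (eBayes, trend on), and 4 contrasts were tested two-sided with Benjamini-Hochberg adjustment over all probe sets tested. The script was tested on simulated data. Arrays have no read depth, and their number limits the precision. Alternatives were other pseudocounts, filters and normalizations, no trend, blocks, and each array left out. Fits with the Gapdh and pyruvate carboxylase control probe sets, and with quantile normalization and no filter, were added after seeing the data. The fits to signals as deposited and with those control probe sets nearly repeat the main fit. They add little to a count of alternatives.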

Additional observations from a re-analysis of the deposited data

Results flagged for a closer look

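In 3 of the 18 member probe sets the changes before and after P14 differed, by the contrast of the intervals. By that contrast 8.01% of all probe sets tested passed, and 13.1% of the brightest 5099. The log2 difference was 0.68 for 1433604_x_at (Aldoa, limma adjusted p = 0.0261), 0.77 for Pkm (limma adjusted p = 0.0336) and 0.79 for 1416183_a_at (Ldhb, limma adjusted p = 0.0455). The other probe sets of Aldoa (0.62 and 0.53) and of Ldhb (0.34, 0.27 and 0.62) did not pass (limma adjusted p = 0.0867 to 0.486). After quantile normalization the 3 differences that had passed were 0.49, 0.53 and 0.59 (limma adjusted p = 0.0634, 0.0682 and 0.0679), and none passed. Over all 19 alternatives the sign held and the adjusted p ran from 0.0222 to 0.217, from 0.0293 to 0.249 and from 0.034 to 0.277. No age has the 4 arrays that a search for single outlying arrays needs.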

How the results depend on the processing

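For P21 against P7 the count of members called was 14 to 16 without each array in turn, and 9 when blocked by the spiked poly-A control, where P21 rests on replicate 1 alone. The shares of all probe sets called were 31.3% to 37.1% and 12.7%. For P14 against P7 it was 9 to 16 without each array (15.5% to 31.2% of all probe sets). For P21 against P14 it was 0 with no variance trend, with the poly-A block and with quantile normalization and no filter, and 0 to 1 without each array (0 to 3.06% of all probe sets). For the difference between intervals it was 1 with no filter, 1 with the replicate block, 0 with quantile normalization (filtered or not), no trend or the poly-A block, and 0 to 4 without each array (0.345% to 7.77% of all probe sets). Where these counts fell, the share of all probe sets called fell too. From P14 to P21 it was 0.791% with no variance trend and 0.38% with quantile normalization and no filter, against the 2.05% given above. For the difference between intervals it was 3.87% with no filter and 5.18% with no variance trend, against 8.01%. With quantile normalization and no filter it was 2.93%. The fall was smaller with the replicate block and with filtered quantile normalization. Quantile normalization moved the median of all probe sets for that difference from -0.10 to 0. It moved the mean over P14 arrays of the members' median signal from 2861 to 2727. Whether replicate numbers pair the arrays was not settled, since arrays of unlike number were not compared. The correlation of deviations between P7 and P21 arrays of the same number was 0.28, -0.02 and 0.13. For P7 and P14 arrays it was -0.04 and 0.14, and for P14 and P21 arrays 0.01 and 0. Signs turned only in changes that did not pass. For 1437974_a_at (Hk1, P21 against P7) the log2 change was -0.04 with quantile normalization (filtered or not) and -0.12 to 0.14 without each array (-0.02, -0.01 and -0.12 without P7 replicate 2, P7 replicate 3 and P21 replicate 2). For 1420901_a_at it was -0.13 to 0.0024 without each array. From P14 to P21, 1416183_a_at (Ldhb) had -0.01 with the replicate block, -0.20 with the poly-A block and -0.04 to -0.0031 without P14 replicate 2, P21 replicate 2 or P21 replicate 3 (-0.01 for the first), and Pkm had -0.0041 with the poly-A block. The difference between intervals for Ldha was 0.07 with the replicate block, 0.02 with the poly-A block and 0.02 to 0.10 without P7 replicate 1, P14 replicate 2 or P21 replicate 3. In P21 against P7, Ldha (-1.75 to -1.52), Pkm (0.88 to 1.07), Tpi1 and all Ldhb probe sets passed in all 19 alternatives.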

Other observations

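Probe sets of 1 gene can show how far a name can be trusted. Likeness was taken as the Euclidean distance between log2 profiles over the 8 arrays, each centred on its own mean. Among 15295 other probe sets, the nearest of the same gene ranked 2 to 40 for Ldhb and 5 to 27 for Aldoa. The farthest of the same gene ranked 60 to 110 for Ldhb and 98 to 386 for Aldoa. Where a probe set has only 1 partner, the ranks were 94 and 357 for Tpi1 and 417 and 2109 for Pfkp. They were 714 and 2410 for Hk1, whose profiles vary little. Against the mean profile of each gene, a probe set of Pkm was the fourth nearest to Ldhb, at 0.21, and an Ldhb probe set, 1455235_x_at, the fifth nearest to Pkm, at 0.211. The other genes, Ldha among them, had no member among their 5 nearest. Ldha, read from 1 probe set, had the longest distance to its nearest, 0.261 (a probe set for which no gene name is at hand). For the remaining genes that distance was 0.076 to 0.181.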
